A study of Rattus norvegicus with 3 samples.

Results

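Lymphatic endothelial nuclei of the rat heart apex were described from single-nucleus RNA sequencing. They were chosen by their counts of unique molecular identifiers (UMIs, each standing for 1 captured transcript). A nucleus was taken when Ccl21, Reln, Mmrn1 and Flt4 together gave at least 4 UMIs and at least 0.3% of all its UMIs. Nuclei in which Actn2, Rbm20, Cmya5 and Mlip, genes of cardiomyocytes, reached 0.4% of UMIs were left out. The same held for more than 1 UMI of the fibroblast genes Dcn, Pdgfra and Bicc1, and for more than 2 UMIs of Nrg1, Cgnl1 and Pkhd1l1, which mark the endocardium. This rule gave 321 of 24664 nuclei, namely 80 of 9964 in WT, 114 of 6810 in BMD and 127 of 7890 in DMD. The values of these genes chose the nuclei, so they are given as a description.

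Nuclei came from Sprague Dawley rats at 12 months of age, from an apex that held parts of the septum and of both ventricles, and were sorted by DAPI, a DNA stain. The WT library came from rats with an intact Dmd gene, the gene of dystrophin. BMD rats, a model of Becker muscular dystrophy, carried an in-frame deletion of exons 45 to 47 of Dmd. DMD rats (R-DMDdel52), a model of Duchenne muscular dystrophy, lacked exon 52. Each genotype was 1 library, and how many animals entered a library is not given in the sources used here. No test between genotypes was therefore possible, and no p-value is given. Intervals are at 95% and cover counting error only, except those around the median of a gene list. The latter are set by the ranked ratios of the list's genes. A difference between genotypes cannot be told apart from one between animals or between libraries.

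Lymphatic vessels of the heart drain interstitial fluid and carry leukocytes away from the muscle. Their endothelial cells are set apart from those of blood vessels by the transcription factor PROX1, and they grow in response to VEGF-C, which is read by the receptor VEGFR-3, the product of Flt4. They release CCL21, the chemokine that draws leukocytes bearing CCR7 towards the vessel. Reln encodes the secreted glycoprotein reelin, Mmrn1 a multimerin of the extracellular matrix, and Lyve1 a hyaluronan receptor of the initial lymphatics.

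The 250 bases before the start of each of the 4 genes that chose the nuclei are shown as RefSeq gives them for the GRCr8 assembly. They lie at chr5:61777516-61777765 on the minus strand for Ccl21 and at chr4:13628318-13628567, chr4:91233166-91233415 and chr10:34414584-34414833 on the plus strand for Reln, Mmrn1 and Flt4. Each is written 5′ to 3′ along its gene, and capitals mark the letters GGAAG on either strand, the core bound by ETS factors, a family that includes the endothelial factors Erg and Elk3.
Ccl21: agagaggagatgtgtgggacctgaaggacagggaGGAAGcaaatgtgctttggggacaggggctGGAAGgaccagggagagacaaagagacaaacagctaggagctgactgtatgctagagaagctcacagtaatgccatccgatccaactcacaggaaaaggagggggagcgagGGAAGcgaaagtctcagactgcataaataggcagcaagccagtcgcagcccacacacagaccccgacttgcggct
Reln: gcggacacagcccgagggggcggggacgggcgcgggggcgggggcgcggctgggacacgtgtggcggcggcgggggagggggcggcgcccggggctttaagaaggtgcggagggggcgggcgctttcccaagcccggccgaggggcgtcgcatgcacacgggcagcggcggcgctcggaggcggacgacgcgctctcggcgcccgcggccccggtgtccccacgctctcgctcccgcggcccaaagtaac
Mmrn1: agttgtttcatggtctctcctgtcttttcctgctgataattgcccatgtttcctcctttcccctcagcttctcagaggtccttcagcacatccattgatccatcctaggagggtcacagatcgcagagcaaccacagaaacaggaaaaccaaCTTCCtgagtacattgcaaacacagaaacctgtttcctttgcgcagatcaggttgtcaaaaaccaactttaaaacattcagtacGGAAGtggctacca
Flt4: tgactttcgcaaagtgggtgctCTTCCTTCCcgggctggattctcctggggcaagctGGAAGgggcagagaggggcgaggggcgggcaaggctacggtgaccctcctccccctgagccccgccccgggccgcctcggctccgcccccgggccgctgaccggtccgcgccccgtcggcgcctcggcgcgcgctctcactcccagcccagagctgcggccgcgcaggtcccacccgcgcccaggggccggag
GGAAG was found 3 times for Ccl21, 0 times for Reln, 2 times for Mmrn1 and 3 times for Flt4, where a pair of matches overlaps by 1 base. It stood in 63.29% of 33469 promoter windows of the same length. ACAAT, the core bound by SOX factors, was in 0 of the 4 windows and in 30.02% of all. The windows of Reln and Flt4 held 80.0% and 76.0% G or C, those of Ccl21 and Mmrn1 54.8% and 45.6%, against a median of 51.2% over all. A match is a description of these letters, not a binding site.

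Over the lymphatic nuclei, 71594 UMIs were counted for WT, 134741 for BMD and 143244 for DMD. The median WT nucleus had 793.5 UMIs (516 to 1960), against 1039 (541 to 3112) for BMD and 1000 (547 to 2524) for DMD. WT nuclei were thus the fewest and the shallowest, and WT ratios rest on the fewest UMIs. Mitochondrial genes gave 3.19% (WT), 3.65% (BMD) and 2.49% (DMD) of these UMIs. No barcode was shared between libraries among the members.

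The targeted gene, Dmd, gave 712 (WT), 1002 (BMD) and 705 CPM (DMD) in lymphatic nuclei, where CPM are the UMIs of a gene per 1000000 UMIs of the class. In free RNA, the barcodes with at most 50 UMIs, it gave 8796, 7133 and 3884 CPM, and in blood endothelial nuclei 751, 1074 and 834 CPM. The deletions take a small part of a long gene, so this count does not check the genotype, and the labels were taken as given. Utrn, which encodes the dystrophin homologue utrophin, stood at 3143 (WT), 3065 (BMD) and 2667 CPM (DMD). Neither gene passed 2-fold between any pair of libraries.

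Of the 12 markers listed for lymphatic endothelium, 11 were detected, and Stab2 had 0 UMIs. Ccl21 gave 12738 (WT), 12238 (BMD) and 13858 CPM (DMD), against 21.5, 28.1 and 40.4 CPM in blood endothelial nuclei. These blood endothelial nuclei, chosen by Flt1, Ptprb, Cyyr1 and Btnl9, had at most 1 UMI of the 4 rule genes by construction. Reln was at 5964, 7585 and 6772 CPM, Mmrn1 at 2430, 1536 and 2171 CPM, and Flt4 at 1187, 1113 and 1040 CPM in WT, BMD and DMD. All 4 genes were seen together in 39 of 80 WT nuclei, 53 of 114 BMD nuclei and 51 of 127 DMD nuclei. A minority of 1, 4 and 9 nuclei rested on a single one of them. Counts are not divided by gene length, so levels are compared for a gene between libraries or classes and not between genes.

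Lymphatic genes that the rule did not use were also high. Prox1 gave 978 (WT), 1039 (BMD) and 1033 CPM (DMD), against 4.09, 10.6 and 9.5 CPM in blood endothelial nuclei. Lyve1 gave 1327, 757 and 970 CPM, against 6.14, 9.87 and 15.0 CPM. A UMI of Prox1 or Lyve1 was present in 80.0%, 81.6% and 77.2% of the lymphatic nuclei. Pdpn, which encodes podoplanin, the membrane glycoprotein by which lymphatic vessels bind platelet CLEC-2, was at 279, 349 and 370 CPM. Tbx1, a T-box factor of lymphatic development, was at 196, 275 and 237 CPM and had 1 UMI or none in the blood endothelial nuclei of any library. Flt1, the VEGFR-1 gene of blood vessels, was at 126, 126 and 112 CPM, against 2390 to 2669 CPM in blood endothelial nuclei. Flt1 helped to choose the latter, so this contrast is a description.

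**Figure D1:**
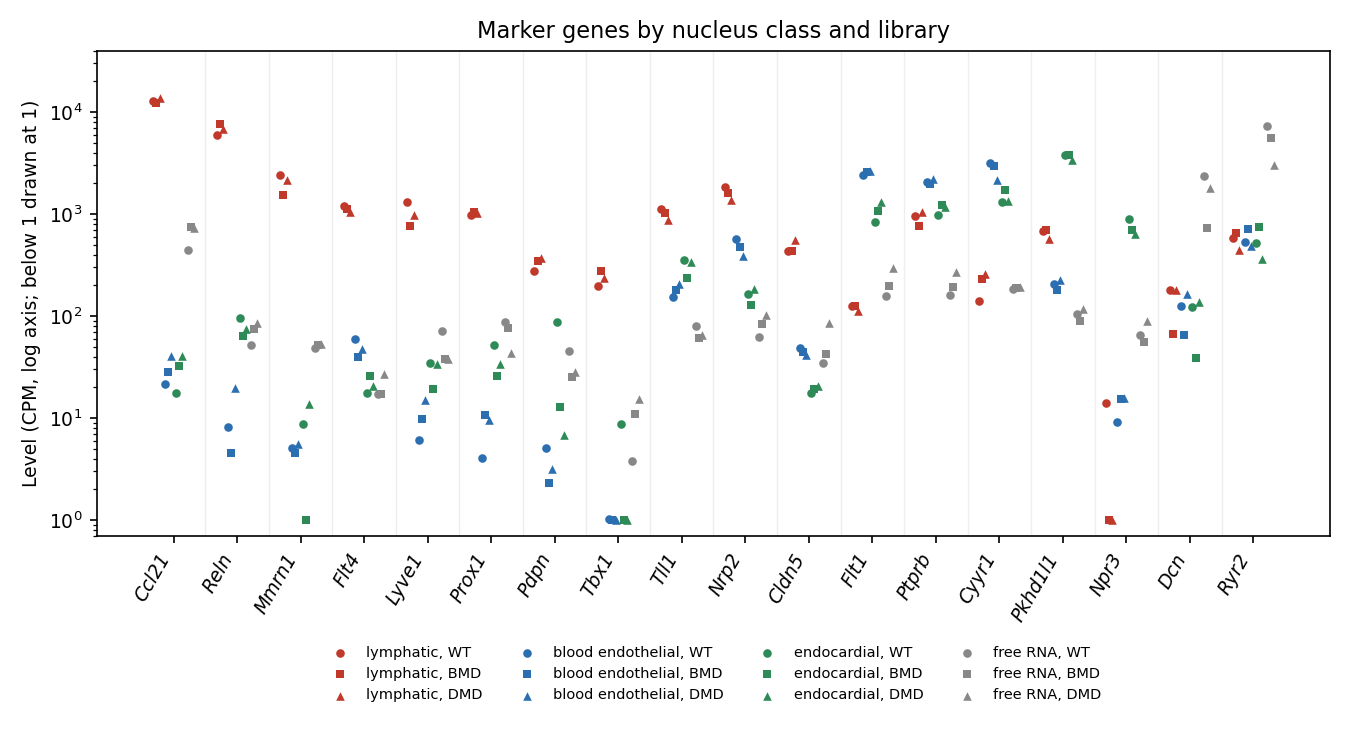
Level of lymphatic, blood endothelial, endocardial, fibroblast and cardiomyocyte markers in CPM (log axis, values below 1 drawn at 1) in lymphatic, blood endothelial and endocardial nuclei and in free RNA of the WT, BMD and DMD libraries. Prox1 lay between 978 and 1039 CPM in lymphatic nuclei of the 3 libraries and between 4.09 and 10.6 CPM in blood endothelial nuclei.

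To equalise depth, each nucleus was thinned to 500 UMIs, and no nucleus fell below that number. A UMI of Prox1 was then found in 38.8% (WT), 32.5% (BMD) and 40.2% (DMD) of lymphatic nuclei, and in 47.5%, 64.0% and 58.3% of them before thinning. In blood endothelial nuclei the thinned shares of Prox1 were 0.0957%, 0.567% and 0.518%. Reln was found in 88.8%, 93% and 88.2% of lymphatic nuclei (97.5%, 99.1% and 95.3% unthinned), against 0.670%, 0.283% and 1.21% of blood endothelial nuclei. The order of the libraries in Prox1 detection differed between thinned and unthinned nuclei.

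Near the minimum of 4 UMIs, nuclei just inside and just outside differed in Prox1 and Flt1, which the rule did not use. The 3 WT, 4 BMD and 12 DMD nuclei with 4 or 5 rule UMIs gave 1575, 633 and 306 CPM of Prox1 and 0, 0 and 102 CPM of Flt1. The 12, 37 and 57 nuclei with 2 or 3 rule UMIs gave 93.2, 42.8 and 0 CPM of Prox1 and 1491, 2010 and 1313 CPM of Flt1. The Prox1 levels inside the minimum rested on 4, 2 and 3 UMIs, so that no order of the libraries is read from them. Lyve1 was at 394, 1265 and 714 CPM inside (1, 4 and 7 UMIs) and at 0, 42.8 and 97.3 CPM outside. The listed lymphatic marker Tll1 was at 394, 1898 and 0 CPM inside and at 0, 342 and 211 CPM outside. Cldn5 was at 0, 0 and 102 CPM inside and at 0, 64.2 and 81.1 CPM outside. Not every lymphatic gene was thus higher inside. DMD held the most members at the edge.

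Markers of other cell types were measured in the lymphatic nuclei as sums over each list. The 10 cardiomyocyte markers found in the files summed to 1299 (WT), 1752 (BMD) and 1543 CPM (DMD), led by Ryr2, against 14747, 21695 and 14294 CPM in free RNA. The fibroblast markers, led by Gsn, summed to 698, 534 and 1319 CPM, against 9266, 4331 and 10740 CPM in free RNA, with Tcf21 at 0. Macrophage markers, led by Mrc1, which lymphatic endothelium also expresses, summed to 279, 237 and 621 CPM, against 265, 321 and 343 CPM in the nuclei outside the lymphatic, blood endothelial and endocardial classes and 409, 388 and 530 CPM in free RNA. Monocyte or neutrophil markers, led by S100a9, summed to 97.8, 237 and 991 CPM, against 93.6, 150 and 666 CPM in those other nuclei and 851, 989 and 4969 CPM in free RNA, with Mmp9 and Ly6c at 0. Smooth muscle markers summed to 168, 141 and 370 CPM with Cnn1 at 0, against 133, 181 and 232 CPM in other nuclei and 116, 180 and 173 CPM in free RNA. Fibroblast, macrophage, neutrophil and smooth muscle markers were thus highest in DMD, and their part in the DMD ratios was not tested. The macrophage and smooth muscle sums were above their level in other nuclei in DMD and, by less, in WT, and below it in BMD. Most Cd163 UMIs in the macrophage sum of DMD came from 1 nucleus. The neutrophil sum was above its level in other nuclei in each library, but most S100a9 UMIs of DMD came from 1 nucleus, so nothing is read from it. The 5 adipocyte markers were at 0 and of the 5 mesothelial markers only Wt1 was seen. Pericyte markers summed to 433, 275 and 321 CPM, T, B and NK cell markers to 140, 52 and 188 CPM, and Schwann markers to 0, 52 and 14.0 CPM. The blood endothelial markers, led by Ptprb, summed to 3785, 2835 and 3854 CPM, against 15921, 15470 and 15136 CPM in blood endothelial nuclei. From the cardiomyocyte genes outside the rule, free RNA was estimated at 8.81%, 8.07% and 10.8% of the UMIs of lymphatic nuclei.

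Lymphatic nuclei made up a larger share of the BMD and DMD libraries than of the WT library. WT held 0.803% (exact Clopper-Pearson interval 0.637 to 0.998%), BMD 1.67% (1.38 to 2.01%) and DMD 1.61% (1.34 to 1.91%). The share was 0.871 percentage points higher in BMD than in WT (Newcombe interval 0.531 to 1.24) and 0.807 points higher in DMD than in WT (0.486 to 1.15). The difference of DMD minus BMD was -0.0644 points (-0.484 to 0.347). Both comparisons with WT rest on the same 80 WT nuclei. The median mitochondrial share of the members was 2.0% (WT), 3.41% (BMD) and 1.86% (DMD). Without nuclei over 5% mitochondrial UMIs, 70 WT, 76 BMD and 97 DMD members were left. BMD then exceeded WT by 0.462 points (0.136 to 0.815) and DMD exceeded it by 0.688 points (0.351 to 1.05). In nuclei thinned to 500 UMIs before the rule was applied, BMD exceeded WT by 1.43 points (1.02 to 1.87). Blood endothelial nuclei also made up a larger share of the mutant libraries, at 10.5% (WT), 15.6% (BMD) and 14.7% (DMD). Of lymphatic, blood endothelial and endocardial nuclei together, lymphatic nuclei were 6.45% (5.15 to 7.97%) for WT, 8.81% (7.32 to 10.5%) for BMD and 9.03% (7.58 to 10.6%) for DMD. On that base BMD exceeded WT by 2.36 points (0.285 to 4.44) and DMD exceeded it by 2.57 points (0.526 to 4.61). A share of nuclei also moves with the numbers of other nuclei captured and with the yield of the sort, which cannot be told apart here.

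The limit on endocardial genes left out many nuclei with enough UMIs of the rule genes. At least 4 rule UMIs and 0.3% were reached by 154 WT, 263 BMD and 242 DMD nuclei. The endocardial limit alone left out 42 (WT), 119 (BMD) and 58 (DMD) of these, and 29, 99 and 45 of them had more than 2 UMIs of Pkhd1l1, a large fibrocystin-like membrane protein. The 38 WT, 112 BMD and 53 DMD nuclei that were left out and qualified once Pkhd1l1 was not counted had to be high in the rule genes, so those levels say nothing of them. Prox1, which the rule did not use, was at 1444, 1243 and 771 CPM in them, above the members in WT and BMD and below them in DMD. Lyve1 was at 1444, 581 and 832 CPM. Npr3, the natriuretic peptide clearance receptor that marks endocardium, was at 24.5, 5.43 and 48.9 CPM, against 898, 705 and 639 CPM in endocardial nuclei. Npr3 helped to choose the endocardial nuclei, together with Nrg1, Cgnl1 and Pkhd1l1, so this contrast is a description. The median depth of the left-out nuclei was 988.5, 1479 and 1355 UMIs, above that of the members in each library.

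With these nuclei taken in, an alternative chosen after seeing the data, 118 WT, 226 BMD and 180 DMD nuclei qualified. The share of WT became 1.18% (0.981 to 1.42%), that of BMD 3.32% (2.91 to 3.77%) and that of DMD 2.28% (1.96 to 2.64%). WT stayed lowest. BMD then exceeded WT by 2.13 points (1.67 to 2.63), and DMD minus BMD became -1.04 points (-1.58 to -0.504). BMD was above DMD in both settings, and the interval of their difference left out 0 only when Pkhd1l1 was not counted. DMD was above BMD in nuclei with at least 1000 UMIs, by 0.0289 points (-0.415 to 0.473), and without nuclei over 5% mitochondrial UMIs, by 0.226 points (-0.184 to 0.634), so that no order of these libraries is read.

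**Figure D2:**
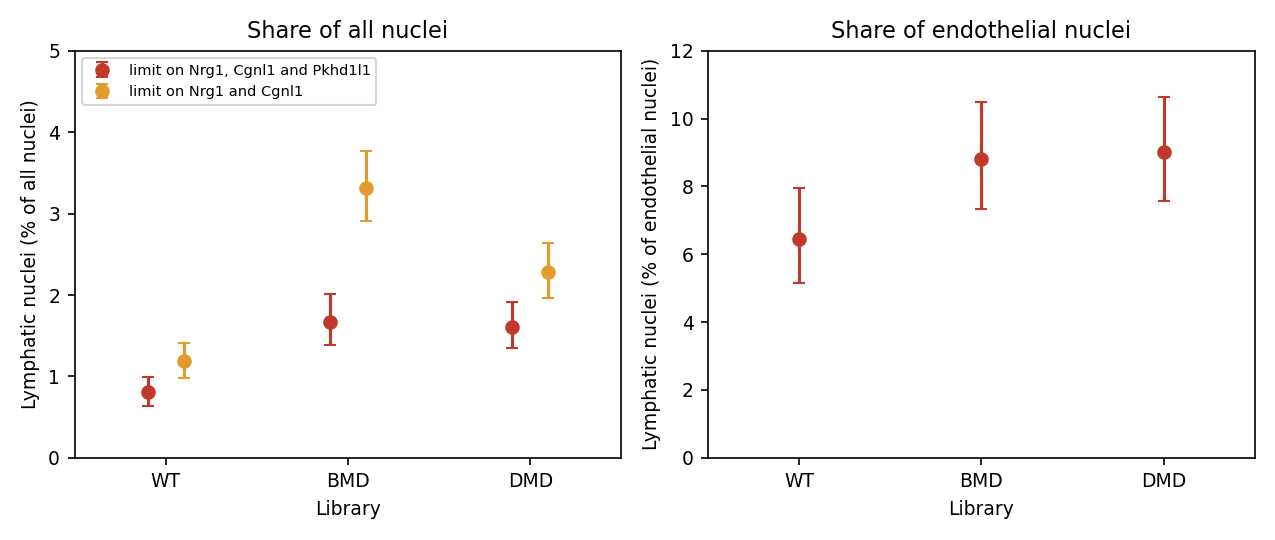
Left, lymphatic nuclei as a percentage of all nuclei of the WT, BMD and DMD libraries under the rule and with Pkhd1l1 left out of the endocardial limit. Right, lymphatic nuclei as a percentage of the lymphatic, blood endothelial and endocardial nuclei chosen here, which leave out other endothelial nuclei. Bars are exact 95% intervals for counting error, and the WT point is lowest in each panel.

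Outside the genes of the rule, Sema3a, Grin2b, Sh3gl3 and Prkcz were among the genes that stood highest above their level in blood endothelial nuclei. Of 687 genes with at least 100 UMIs over the lymphatic nuclei, 52 (7.57%) were at least 4-fold higher than in blood endothelial nuclei in each of the 3 libraries, the 4 rule genes among them, and 3 (0.437%) at least 4-fold lower. The minimum of 100 UMIs was set on lymphatic nuclei, so genes low in them, such as Flt1, could not be counted as lower. The 52 and the 3 are therefore not compared with each other. Both classes were chosen by endothelial genes, so these counts describe the classes and carry no test. Sema3a, the secreted semaphorin that repels growing axons and guides lymphatic valve formation, was at 2891 (WT), 3614 (BMD) and 2981 CPM (DMD), against 62.4, 56.2 and 54.6 CPM. Grin2b, a subunit of the NMDA glutamate receptor best known from neurons, was at 279, 186 and 412 CPM, with 0 UMIs in the blood endothelial nuclei of WT and BMD and 0.792 CPM in those of DMD. It was seen in 9 WT, 17 BMD and 32 DMD lymphatic nuclei.

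The 20 genes that led this comparison once the rule genes were set aside also included the endocytic adaptors Sh3gl3 and Ston2, the atypical protein kinase C gene Prkcz, the phospholipase C gene Plce1, the transcription factors Aff3 and Glis3, the pyrimidine-degrading enzyme gene Dpyd, the scaffold gene Mpp7, the adhesion receptor gene Adgrg3 and the proprotein convertase gene Pcsk6. Sh3gl3 was at 531, 401 and 370 CPM against 2.05, 2.28 and 1.58 CPM in blood endothelial nuclei. Prkcz was at 475, 445 and 419 CPM against 4.09, 2.28 and 4.75 CPM. These levels were close between genotypes, and for neither gene did an interval of the genotype ratios leave out 1. Tnfaip8l3, Fam189a1, Igsf3, Arhgap42 and Tc2n completed the list with Prox1, Lyve1 and Pdpn. Pcsk6 was at 210, 327 and 314 CPM, close to its 238, 183 and 234 CPM in free RNA.

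Among the 20 listed lymphatic transcription factors, 6 had at least 100 UMIs and 0 passed 2-fold between genotypes in either direction. Over all 687 genes 1.16% were past 2-fold higher and 0.728% lower in BMD over WT, 1.02% and 0.728% in DMD over WT, and 0.437% and 0.291% in DMD over BMD, so that 0 of 6 does not set these genes apart. Their median log2 ratio to WT was -0.37 in BMD and -0.21 in DMD, beside 0.02 and 0.02 over all 687 genes. The ranked ratios of the 6 genes set intervals of -0.45 to 0.36 in BMD and -0.65 to 0.67 in DMD. These run from the lowest to the highest of the 6 ratios and reflect spread between genes, not counting error. Both intervals held 0. Over the alternatives run, in which up to 10 of these genes had enough UMIs, the median ran from -0.41 to -0.06 in BMD and from -0.32 to -0.09 in DMD. The BMD median nearest to 0 was that with Pkhd1l1 left out of the endocardial limit. Zfpm2, a cofactor of GATA factors, was at 2081 (WT), 1521 (BMD) and 1668 CPM (DMD), against 229 to 274 CPM in blood endothelial nuclei. Nr2f2 (COUP-TFII), which works with Prox1 and sets venous fate, was at 824, 609 and 524 CPM. Both were highest in WT, and Prox1 itself differed by 0.09 (-0.34 to 0.52) in BMD and 0.08 (-0.34 to 0.51) in DMD on the log2 scale. Maf, a factor of lymphatic maturation with 87 UMIs in all, was at 321, 215 and 244 CPM against 4.09, 5.32 and 1.58 CPM in blood endothelial nuclei. Foxp1 was at 1481, 1158 and 1040 CPM and Elk3 at 992, 764 and 922 CPM.

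Between BMD and WT, 8 of 687 genes (1.16%) were past 2-fold higher in BMD with an interval that left out 1, and 5 (0.728%) were past 2-fold lower. Between DMD and WT, 7 (1.02%) were higher in DMD and 5 (0.728%) lower. Both comparisons used the same WT library. With TMM scaling the higher and lower genes numbered 14 and 2 in BMD over WT and 9 and 3 in DMD over WT. Between DMD and BMD, 3 (0.437%) were higher and 2 (0.291%) lower in DMD. The median log2 ratio of all 687 genes was 0.02, 0.02 and -0.01 in these comparisons, so that the 3 libraries were centred alike.

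Kdr, the gene of VEGFR-2, the second receptor by which VEGF-C acts, was lower in BMD. It gave 838 CPM in WT (60 UMIs), 379 CPM in BMD (51 UMIs) and 663 CPM in DMD (95 UMIs). BMD was low, while WT and DMD were not apart beyond counting error. The log2 ratio was -1.15 in BMD over WT (-1.71 to -0.58), -0.34 in DMD over WT (-0.82 to 0.15) and 0.81 in DMD over BMD (0.30 to 1.33). In blood endothelial nuclei the level of Kdr was 303, 324 and 320 CPM. At 500 UMIs a nucleus, a UMI of Kdr was found in 36.3% (WT), 16.7% (BMD) and 30.7% (DMD) of lymphatic nuclei (50%, 35.1% and 47.2% unthinned), against 13.7%, 14.5% and 15.9% of blood endothelial nuclei. With Pkhd1l1 left out of the endocardial limit the log2 ratio of BMD over WT was -1.27 (-1.66 to -0.87). In nuclei with at least 1000 UMIs it was -0.87 (-1.72 to 0.02), and the call was lost.

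Of 23 listed genes of the VEGF-C pathway, 22 were in the files and 7 had at least 100 UMIs, with a median log2 ratio of -0.09 in BMD over WT and -0.04 in DMD over WT. Kdr was the one past 2-fold lower in BMD, and Itgb1, the integrin beta-1 subunit, the one past 2-fold higher, at 223, 490 and 412 CPM (log2 1.13, 0.33 to 2.02), though its mean level was below that of free RNA. These were 1 of 7 genes in each direction, beside 0.728% lower and 1.16% higher over all genes, and 7 genes are too few to set the list apart. Flt4, whose UMIs helped to choose the nuclei, is given as a description and differed by -0.09 in BMD and -0.19 in DMD. It is among the 7 genes, so their medians are a description too. Nrp2, the neuropilin co-receptor of VEGFR-3, was at 1858, 1596 and 1368 CPM (log2 -0.44 in DMD over WT, -0.77 to -0.11). The level of Nrp2 ran from WT down to DMD, within 2-fold, and no order of the libraries is read from Flt4.

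Tc2n, a gene of a C2-domain protein, differed most between DMD and WT among genes above free RNA when ranked by the near end of the interval. It gave 335 CPM in WT (24 UMIs in 17 nuclei), 564 CPM in BMD (76 UMIs in 41 nuclei) and 991 CPM in DMD (142 UMIs in 57 nuclei). Its level stood in the order WT, BMD, DMD, and it was at 3.07, 5.32 and 2.37 CPM in blood endothelial nuclei. The log2 ratio was 0.75 in BMD over WT (0.07 to 1.48), 1.56 in DMD over WT (0.93 to 2.25) and 0.81 in DMD over BMD (0.40 to 1.23). At 500 UMIs a nucleus it was found in 16.3%, 21.9% and 29.9% of lymphatic nuclei (21.3%, 36% and 44.9% unthinned), against 0.0957%, 0.283% and 0.259% of blood endothelial nuclei. With Pkhd1l1 left out of the limit, the ratio for DMD over WT became 1.03 on that scale (0.57 to 1.52).

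Ell2, an elongation factor of RNA polymerase II, was past 2-fold higher in both mutants. It gave 97.8 (WT), 371 (BMD) and 335 CPM (DMD), from 7, 50 and 48 UMIs. On the log2 scale BMD exceeded WT by 1.92 (0.78 to 3.31) and DMD by 1.78 (0.62 to 3.17), which rested on the few WT UMIs. In blood endothelial nuclei Ell2 was at 194, 186 and 169 CPM. With Pkhd1l1 left out of the limit the ratios were 0.67 (0.04 to 1.36) in BMD and 0.64 (-0.02 to 1.35) in DMD, so that neither passed 2-fold.

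The other genes past 2-fold and above free RNA had fewer UMIs. In BMD over WT, Kpna4, an importin alpha, was higher (196, 430 and 307 CPM in WT, BMD and DMD), as were Clasp2, a microtubule plus-end protein, and the unnamed gene AABR07040412.1. The lipid phosphate phosphatase gene Plpp3 was lower (489, 223 and 258 CPM, log2 -1.13, -1.89 to -0.39), as was the kinase gene Snrk (489, 230 and 356 CPM). In blood endothelial nuclei Snrk was at 480, 361 and 487 CPM, also lowest in BMD (log2 BMD over WT -0.41, -0.60 to -0.22), and Plpp3 at 963, 943 and 873 CPM. In DMD over WT, Plpp1, a relative of Plpp3, was higher (335, 364 and 677 CPM, log2 1.01, 0.36 to 1.72), but not in nuclei with at least 1000 UMIs (0.18, -0.58 to 1.0). Lrrfip1 (475, 327 and 216 CPM), Cttnbp2 (461, 341 and 223 CPM) and Srgap3 were lower. In DMD over BMD, Grin2b was higher (log2 1.15, 0.45 to 1.89), and Cdk6, a kinase of the cell cycle, was lower (391, 475 and 237 CPM, log2 -1.0, -1.65 to -0.38). Of these genes only Snrk, Srgap3 and Cttnbp2 were still past 2-fold with Pkhd1l1 left out of the limit. Kpna4 was then at 0.62 (0.01 to 1.28), Plpp3 at -0.49 (-0.99 to 0.03), Plpp1 at 0.71 (0.21 to 1.23), Lrrfip1 at -0.71 (-1.31 to -0.11), Grin2b at 0.84 (0.37 to 1.32) and Cdk6 at -0.61 (-1.04 to -0.20) in the same comparisons, and Clasp2 and AABR07040412.1 were not called. In nuclei with at least 1000 UMIs none of them was called past 2-fold. There 337 genes had the 100 UMIs needed, and a gene below that could not be called. With TMM scaling Snrk, Srgap3 and Cttnbp2 were not called. Once nuclei marked as doublets were removed, Plpp3, Clasp2, AABR07040412.1, Srgap3 and Cttnbp2 were not called. With the counts of the aggregate, the file that also holds WT, Plpp3 (-0.62, -1.30 to 0.07), Snrk, Clasp2, AABR07040412.1, Srgap3 and Cdk6 were not called. With a rule minimum of 6 UMIs, Clasp2, AABR07040412.1, Srgap3, Cttnbp2 and Cdk6 were not called. A gene that fell below 100 UMIs in an alternative also counts as not called. After free RNA subtraction Clasp2, AABR07040412.1, Plpp3, Lrrfip1 and Srgap3 were not called.

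**Figure D3:**
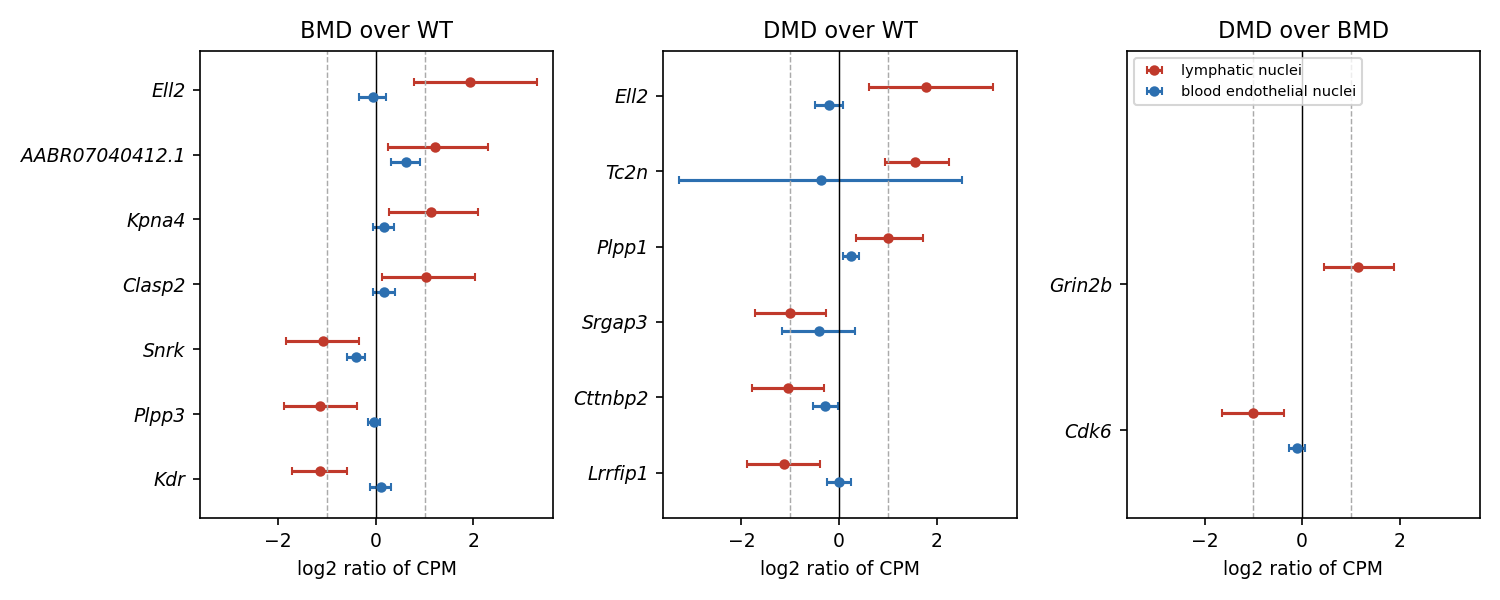
Log2 ratio between libraries, with 95% intervals for counting error, of the genes past 2-fold and above free RNA, in lymphatic and in blood endothelial nuclei. Kdr lay at -1.15 in BMD over WT in lymphatic nuclei, and Tc2n at 1.56 in DMD over WT; no blood endothelial value is drawn for Grin2b, which had 0 UMIs there in BMD.

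The other calls fell on genes whose mean level was below that of free RNA. They were S100a9, Sorbs2, Itgb1 and Man1a1 higher and Rsrp1 and Dlc1 lower in BMD over WT. In DMD over WT they were S100a9, Mgp, Ifi27 and Sorbs2 higher and Ccdc141 and Gpm6a lower. In DMD over BMD, S100a9 (log2 2.35, 1.59 to 3.19) and Mgp, a matrix inhibitor of calcification (1.20, 0.56 to 1.88), were higher and Ccdc141 (-1.03, -1.77 to -0.32) was lower. S100a9, a calcium-binding protein of neutrophils, gave 1 (WT), 17 (BMD) and 92 UMIs (DMD). Of these, 16 in BMD and 74 in DMD came from 1 nucleus each, and free RNA held 391, 429 and 2666 CPM of it.

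Differences within 2-fold were measured for genes with more UMIs. Lyve1 was highest in WT, with a log2 ratio of BMD over WT of -0.81 (-1.23 to -0.39). At 500 UMIs a nucleus Lyve1 was found in 43.8% (WT), 28.1% (BMD) and 31.5% (DMD) of nuclei (58.8%, 55.3% and 55.1% unthinned), against at most 0.777% of blood endothelial nuclei. Abi3bp, a matrix-binding protein, was highest in BMD, at 1592, 2397 and 1257 CPM. Its log2 ratio of DMD over BMD was -0.93 (-1.20 to -0.66). In blood endothelial nuclei Abi3bp was at 107, 153 and 182 CPM, so that BMD was above WT in both classes. P3h2, a collagen prolyl hydroxylase, was at 587, 1054 and 942 CPM in lymphatic and at 170, 375 and 310 CPM in blood endothelial nuclei, so that both classes were lowest in WT. Igfbp5, a binding protein of insulin-like growth factors, was at 2333, 1603 and 1396 CPM. Its log2 ratio to WT was -0.54 in BMD and -0.74 in DMD over summed UMIs, but -0.13 and -0.24 when each nucleus had equal weight. No interval that covers the spread between nuclei was computed for the equal weighting. In nuclei with at least 1000 UMIs the ratio was larger, at -1.06 (-1.44 to -0.68) and -1.69 (-2.10 to -1.27), and 47 of the 167 WT UMIs of Igfbp5 came from 1 nucleus. Zfp521, a zinc finger factor, was at 1481, 2375 and 1962 CPM. Flrt2, an adhesion protein that binds UNC5 receptors, was at 712, 1269 and 915 CPM. The log2 ratio of Flrt2 in BMD over WT was 0.83 (0.37 to 1.31). In nuclei with at least 1000 UMIs it was 1.42 (0.71 to 2.22), and in nuclei thinned to 500 UMIs 0.63 (-0.02 to 1.30).

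Other genes near the ends of the comparisons stayed within 2-fold. In BMD over WT, Etl4 was higher at 531, 928 and 712 CPM in WT, BMD and DMD (log2 0.81, 0.27 to 1.37), and Ttc28 lower at 908, 505 and 586 CPM (-0.85, -1.36 to -0.33). In DMD over WT, the higher genes were Lrg1, a secreted glycoprotein that acts on TGF-beta signalling (0.81, 0.14 to 1.53), Zcchc7 (0.66), Mbnl2, a splicing factor (0.61), and Rasal2, a Ras GTPase activator (0.61). Adam19, a membrane metalloprotease, was lower at 726, 438 and 377 CPM (-0.95, -1.52 to -0.37). In DMD over BMD, the diacylglycerol kinase gene Dgkh (0.91), Tmtc1 (0.87) and Tmem164 (0.78) were higher. Rbms1, an RNA-binding protein, was lower at 3129, 4089 and 2737 CPM (-0.58, -0.77 to -0.39), as were the GTPase activators Asap1 (-0.95) and Arhgap18 (-0.89), the hyaluronidase gene Cemip2 (-0.69) and Nebl (-0.64). With Pkhd1l1 left out of the limit, the intervals of Lrg1, Mbnl2, Cemip2 and Nebl held 0.

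Calcrl, Tgfbr2 and Ntn1 were lowest in DMD, within 2-fold. Calcrl, the receptor that reads adrenomedullin with Ramp2, was at 1285 (WT), 1076 (BMD) and 768 CPM (DMD) (log2 DMD over WT -0.74, -1.16 to -0.33). Ramp2 was at 349, 334 and 405 CPM, and its intervals held 1. Tgfbr2, the type 2 receptor of TGF-beta, was at 1313, 1195 and 817 CPM (-0.68, -1.09 to -0.28). In nuclei with at least 1000 UMIs the ratio of Calcrl was -0.57 (-1.14 to 0.02). Ntn1, the guidance ligand netrin-1, was at 1411, 1046 and 866 CPM (-0.70, -1.10 to -0.31), while its receptor gene Unc5b was at 670, 698 and 768 CPM.

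Efna5, which encodes the guidance ligand ephrin-A5, had no UMI in BMD lymphatic nuclei. It was chosen after its values were seen, as 1 of 2 genes among 1715 with at least 50 UMIs that were at 0 in a library. WT gave 22 UMIs in 17 of 80 nuclei and DMD 45 UMIs in 30 of 127 nuclei, at 307 and 314 CPM, and BMD 0 UMIs in 114 nuclei. Against a floor of 3 UMIs in the BMD library, the measured level was 13.8-fold higher in WT and 14.1-fold higher in DMD. With the counting error of both libraries, the near end of the exact interval was 10.31-fold for WT over BMD and 11.01-fold for DMD over BMD. In the nuclei that qualified when Pkhd1l1 was left out of the limit, and were not among the members, Efna5 gave 15 UMIs in 38 WT nuclei, 0 UMIs in 112 BMD nuclei and 32 UMIs in 53 DMD nuclei. BMD was thus at 0 in both sets of nuclei. In endocardial nuclei the level was 209, 38.5 and 102 CPM, and in blood endothelial nuclei 2.05, 0.759 and 2.37 CPM. Over all nuclei of the BMD library 99 UMIs of Efna5 were counted, so the gene was not missing from that file.

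The gene groups with known roles in lymphatics held few members past 2-fold. Over the 17 lists, 78 genes had at least 100 UMIs, and past 2-fold were 2 of them in BMD over WT, 1 in DMD over WT and 0 in DMD over BMD, where the shares over all genes in either direction were those given above. These counts do not set the lists apart from the other genes. The medians given for the lists are small. Of 14 lists with at least 3 such genes, 8 in BMD over WT and 7 in DMD over WT had a median of the opposite sign under 1 or more of the alternatives. Transcription factor, angiopoietin and TIE, immediate early, interferon and vasoactive lists kept their sign in both comparisons. Dystrophin complex genes kept it in BMD over WT, and collecting vessel and leukocyte entry genes in DMD over WT. The mean over nuclei left the list medians unchanged by construction, so it could not alter a sign. Each list held few such genes, and no direction is read from any of them.

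Genes of initial lymphatics had 6 of 12 members with at least 100 UMIs and medians of 0.13 in BMD over WT and 0.08 in DMD over WT. These 6 were Ccl21, Reln, Sema3a, Lyve1, Fgl2 and Pdpn. Ccl21 and Reln helped to choose the nuclei, so these medians are a description. Of 22 collecting vessel and valve genes, 3 had enough UMIs. Itga9, the integrin subunit needed for valve leaflets, was at 1564, 1469 and 1410 CPM, and Gja1, the connexin-43 gene, at 419, 252 and 454 CPM. Cldn11 was at 0 and Foxc2, the valve factor, had 3 UMIs in all. A collecting vessel profile was not detectable at this depth from Foxc2 and Cldn11.

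Genes of leukocyte entry gave medians of -0.06 and 0.09 over 4 of 30 genes, Ccl21, Lyve1, Spns2 and Stab1. Since Ccl21 helped to choose the nuclei, these medians are a description. Spns2, the exporter of sphingosine 1-phosphate, was at 349, 334 and 482 CPM, and the scavenger receptor gene Stab1 at 293, 297 and 307 CPM. Junction genes gave medians of -0.15 and -0.10 over 7 of 23. Cldn5, the claudin of endothelial tight junctions, was at 433, 438 and 552 CPM, against 41.2 to 49.1 CPM in blood endothelial nuclei. Ptprm was at 1285, 1700 and 1641 CPM, against 3264 to 4181 CPM in blood endothelial nuclei. Neither Cldn5 nor Ptprm passed 2-fold between genotypes.

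Guidance genes gave medians of -0.01 and 0.08 over 12 of 40, and matrix genes -0.01 and 0.09 over 13 of 38. The first list holds the rule gene Reln and the second Mmrn1, so these medians are a description. Timp3, an inhibitor of metalloproteases, was at 1983, 1484 and 1375 CPM, and Lama4, a laminin chain of vessel walls, at 1187, 1529 and 1264 CPM. TGF-beta genes gave -0.03 and 0.14 over 6 of 34, and angiopoietin and TIE genes -0.33 and -0.42 over 3 of 10. Tek, the TIE2 receptor, was at 531, 393 and 335 CPM. Notch genes gave -0.15 and -0.36 over 2 of 17, vasoactive genes -0.26 and -0.16 over 3 of 19, and dystrophin complex genes 0.21 and -0.00 over 4 of 15. None of these lists held a gene past 2-fold between genotypes, which at the shares of 1.16% higher and 0.728% lower over all genes in BMD over WT, and 1.02% and 0.728% in DMD over WT, does not set such short lists apart.

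Interferon and NF-kappaB genes gave medians of 0.21 and 0.16 over 4 of 32. Ifi27, an interferon-induced gene, was at 210, 364 and 447 CPM, past 2-fold in DMD over WT (log2 1.09, 0.26 to 2.01), and B2m, the light chain of MHC class I, at 1453, 1521 and 1655 CPM. Immediate early and stress genes gave -0.51 and -0.14 over 3 of 36. Txnip was at 992, 557 and 901 CPM in lymphatic and 759, 349 and 822 CPM in blood endothelial nuclei, lowest in BMD in both. Of 27 lipid genes only Abca1, a cholesterol exporter, had enough UMIs, at 419, 289 and 405 CPM. None of the 25 cell division genes reached 100 UMIs, and Top2a was at 0.

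**Figure D4:**
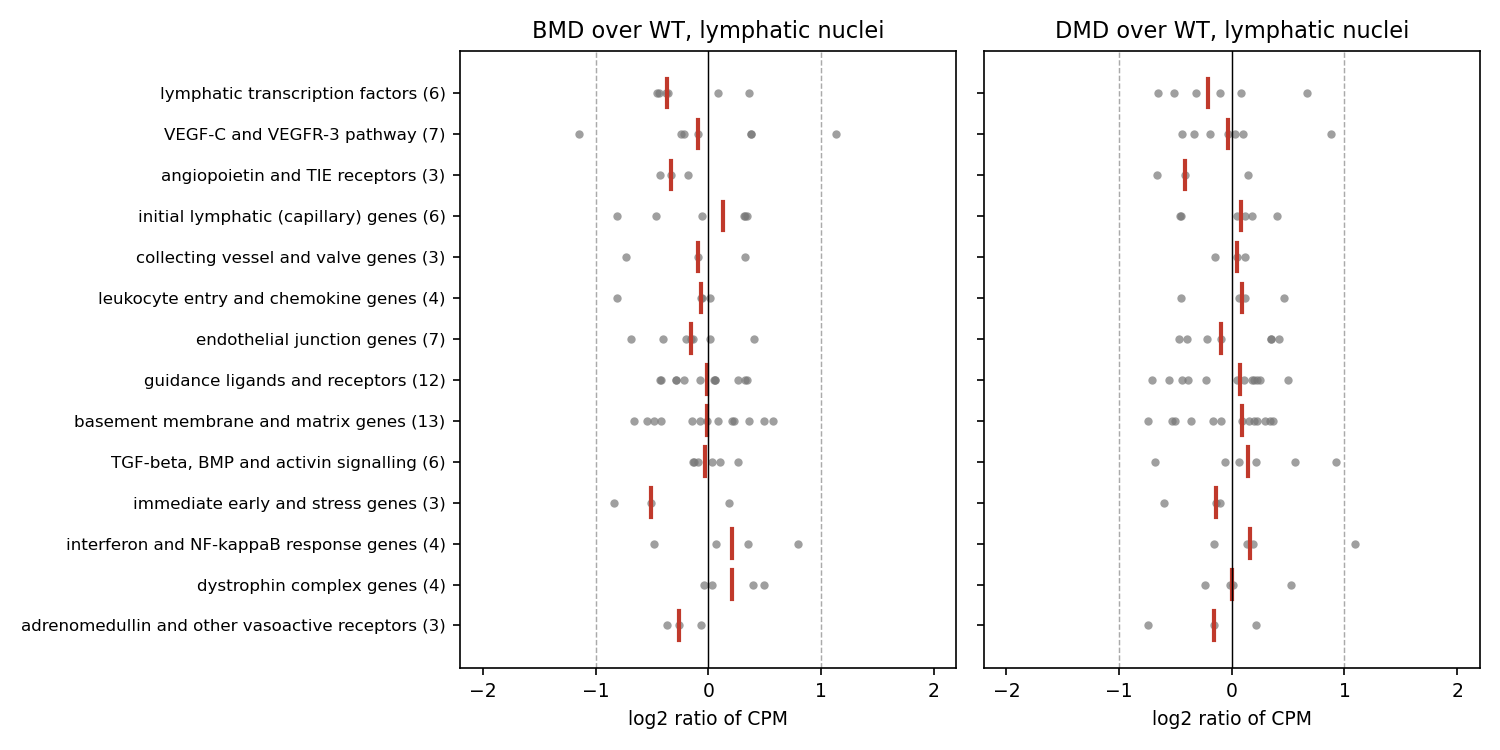
Log2 ratio of BMD over WT and of DMD over WT for each gene with at least 100 UMIs in 14 gene lists with 3 or more such genes; dots are genes and the red bar is the median of a list. Kdr (-1.15) and Itgb1 (1.13) lay past 2-fold in BMD over WT, and the medians lay between -0.51 and 0.21.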

How the data were processed

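The authors aligned and counted the reads with Cell Ranger, on rn6 per the submitters' processing notes, and deposited raw UMI counts per gene for all barcodes. The WT file was an aggregate that joined the 3 libraries, from which the WT barcodes were taken, and BMD and DMD came from their own files. The headers name Cell Ranger 6.0.1 for the aggregate and Cell Ranger 4 for BMD and DMD. Whether introns were counted is not given in the sources used here. In the aggregate BMD kept 76.1% and DMD 92.9% of their UMIs. Library totals were 21609238 (WT), 21142346 (BMD) and 19215994 UMIs (DMD). Nuclei were the deepest barcodes, as many as the study gives for each library, and the shallowest had 513, 525 and 546 UMIs. The study names a 3′ kit in its methods and a 5′ technology in its results, and 3′ counts were assumed.

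Within each library, UMIs of the lymphatic nuclei were added up and expressed as CPM. Ratios have exact conditional intervals, sums exact Poisson intervals and shares exact Clopper-Pearson intervals, all at 95% and for counting error only. The interval around a list median is set by the ranked ratios of its genes. For a list of few genes it is their full range and need not reach 95%. A gene was called past 2-fold at a ratio of at least 2, or at most its inverse, with an interval that left out 1, among genes with at least 100 UMIs over the 3 libraries. Named genes were taken from the genes of the rule, Lyve1, Dmd and Utrn, listed genes past 2-fold or among the 6 of a list with the most UMIs, the 20 genes outside the rule that stood highest over blood endothelial nuclei, and the 8 genes at each end of a comparison by the near end of the interval, above free RNA. Maf, Foxc2 and other genes outside this rule were chosen after their values were seen. The members and gene lists were chosen with earlier results of these data known. Genes not found in the files, Ttn and Pecam1 among them, were not analysed here. Scrublet marked 8.01%, 5.10% and 10.4% of nuclei as doublets in WT, BMD and DMD, of which 4, 4 and 8 were members, and they were kept except in an alternative. Python 3.11.15, numpy 2.4.6, scipy 1.17.1, pandas 2.3.3, scanpy 1.11.5, matplotlib 3.10.9, R 4.3.3 and edgeR 4.0.16 (TMM factors only) were used, and the counting and calls were tested on simulated data. Alternatives covered the rule, depth, doublets, mitochondrial share, free RNA, scaling, the fold, the minimum of UMIs and the counts of the aggregate, and were also run for the median log2 ratio of each list with at least 3 genes tested.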

Additional observations from a re-analysis of the deposited data

Results flagged for a closer look

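At the ends of the comparisons, 3 named genes stood on opposite sides of 0 in lymphatic and in blood endothelial nuclei. Each interval left out 0, and the difference between the classes was not tested. Only comparisons in which the gene was named at an end were counted. Lrg1, at an end only in DMD over WT, was therefore not among them. Its log2 ratio of BMD over WT was 0.73 (0.05 to 1.46) in lymphatic and -0.47 (-0.87 to -0.07) in blood endothelial nuclei. Ldb2, a LIM-domain binding cofactor, had a log2 ratio of BMD over WT of -0.53 (-0.81 to -0.25) in lymphatic and 0.48 (0.23 to 0.73) in blood endothelial nuclei, and of DMD over WT of -0.57 (-0.84 to -0.29) and 0.29 (0.03 to 0.54). Mpp7, a scaffold protein of cell polarity, had a ratio of DMD over WT of -0.72 (-1.08 to -0.37) in lymphatic and 0.61 (0.16 to 1.07) in blood endothelial nuclei, and of DMD over BMD of -0.66 (-0.97 to -0.35) and 0.67 (0.26 to 1.10). Klf12, a transcription factor, had a ratio of BMD over WT of 0.81 (0.26 to 1.39) in lymphatic and -0.14 (-0.23 to -0.05) in blood endothelial nuclei. Not all of these intervals held under the alternatives. In nuclei with at least 1000 UMIs the lymphatic ratio of Ldb2 was -0.35 (-0.76 to 0.07) in BMD over WT and -0.18 (-0.58 to 0.24) in DMD over WT. In nuclei thinned to 500 UMIs it was -0.30 (-0.83 to 0.23) for Mpp7 in DMD over WT and 0.76 (-0.03 to 1.62) for Klf12 in BMD over WT. The level of Ldb2 was 2626, 1818 and 1773 CPM in lymphatic and 215, 299 and 262 CPM in blood endothelial nuclei of WT, BMD and DMD.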

How the results depend on the processing

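No paired analysis was possible because each genotype had 1 library, and no library could be left out. The share was lowest in WT under every alternative run, and DMD minus BMD had an interval that left out 0 only without exclusions and with Pkhd1l1 left out of the endocardial limit. Without exclusions the differences in share were 2.32 (BMD minus WT), 1.52 (DMD minus WT) and -0.795 points (DMD minus BMD). BMD minus WT was 1.43 points in nuclei thinned to 500 UMIs, 0.462 without nuclei over 5% mitochondrial UMIs, 1.27 with the counts of the aggregate and 2.13 without Pkhd1l1, where DMD minus BMD was -1.04. The other 19 share values lay within the interval of the reported one. Counts of genes past 2-fold moved more. Higher and lower genes numbered 39 and 41 (BMD over WT), 37 and 34 (DMD over WT) and 33 and 19 (DMD over BMD) among 1715 genes with at least 50 UMIs. Among 217 genes with at least 200 UMIs they were 0 and 1 (Kdr), 1 (Tc2n) and 0, and 0 and 0. At 1.5-fold they were 33 and 24, 22 and 30, and 33 and 35. With TMM factors, which set the median of all genes at 0.13 in BMD over WT and 0.10 in DMD over WT, there were 14 higher and 2 lower in BMD over WT and 3 lower in DMD over WT. The mean over nuclei gave 14 and 9 in BMD over WT, 8 lower in DMD over WT and 6 higher in DMD over BMD. For this mean the intervals were those of the summed UMIs moved to the new ratio, and they leave out the spread between nuclei. Thinning, with 192 genes tested, gave 2 and 3 in BMD over WT, 1 and 1 in DMD over WT and 1 higher in DMD over BMD. Free RNA subtraction gave 7 lower in DMD over BMD. Nuclei with at least 1000 UMIs, with 337 genes tested, gave 12 and 8 in DMD over WT, 11 and 4 in BMD over WT and 2 and 2 in DMD over BMD, nearly all of them other genes than those reported. Shared with the reported calls were S100a9 in each comparison and Tc2n in DMD over WT, and none of the lower ones. A rule minimum of 6 UMIs gave 3 lower in DMD over WT and 0 lower in DMD over BMD, and the aggregate 5 higher in BMD over WT. Without Pkhd1l1, 1575 genes were tested, with 17 and 15 in BMD over WT, 28 and 12 in DMD over WT and 12 higher in DMD over BMD. Of the reported calls these held 1 of 8 and 2 of 5 in BMD over WT, 4 of 7 and 2 of 5 in DMD over WT, and 2 of 3 and 0 of 2 in DMD over BMD. Listed pathway genes past 2-fold in BMD over WT, DMD over WT and DMD over BMD were 6, 6 and 4 at 50 UMIs and 4, 2 and 2 without Pkhd1l1. At 200 UMIs they were 1 in BMD over WT and 0 in DMD over WT. In DMD over WT they were 2 with TMM factors, 2 with the mean over nuclei, 0 after thinning, 3 after free RNA subtraction and 2 at 1000 UMIs, and in DMD over BMD 1 after free RNA subtraction and 1 at 1000 UMIs. Apart from these alternatives' own construction (more or fewer genes or nuclei tested), the cause was not tested. Of the ratios of named genes, 398 values kept their side with an interval that left out 0 where it had done so, and in 32 the interval reached 0. No ratio whose interval left out 0 changed sign. Of the list medians, 380 values lay within the interval that the ranked ratios of the list's own genes set around its median and 10 outside it, among them 0.35 for guidance genes in BMD over WT at 1000 UMIs. The mean over nuclei was not carried into the list medians. Its values there repeat the reported ones, are among the 380 and are no check. 80 WT nuclei set the depth of both comparisons with WT.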

Other observations

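Cxcl10, a chemokine induced by interferon, was the other gene with at least 50 UMIs and 0 in a library. It had 55 UMIs (WT), 0 (BMD) and 5 (DMD), of which 54 in WT came from 1 of 80 nuclei. Ccl2, a chemokine that draws monocytes, gave 15, 43 and 10 UMIs in 5, 14 and 7 nuclei of WT, BMD and DMD, at 210, 319 and 69.8 CPM, against 7.92 to 18.4 CPM in blood endothelial nuclei. Cd163, a macrophage receptor, gave 0, 1 and 12 UMIs, of which 10 in DMD came from 1 nucleus. Mrc1 was more widely spread, with 13, 27 and 51 UMIs in 12, 19 and 27 nuclei. Vwf, the von Willebrand factor gene, gave 1, 4 and 24 UMIs in 1, 3 and 15 nuclei. Il7, a cytokine that lymphatic endothelium supplies to T cells, was at 112, 111 and 97.7 CPM. Ccl2, Cd163, Vwf and Il7 were chosen after their values were seen.

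Nuclei with enough rule UMIs that only the fibroblast limit left out numbered 19 in WT, 16 in BMD and 21 in DMD. Their Dcn level was 2415, 1204 and 2283 CPM, and their Ccl21 level was 6339, 4964 and 10600 CPM. Both genes were part of what selected these nuclei, so the levels are a description.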
